A study of Mus musculus with 6 samples.

Results

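The p21-activated kinases (PAKs) and the Inka inhibitors were followed in ribosome-bound RNA from *Kiss1* cells of the medial amygdala (MeA) of female mice. The genes were chosen by symbol, and all 8 of the genes sought were among the 13886 genes listed, namely the 6 PAK genes *Pak1*, *Pak2*, *Pak3*, *Pak4*, *Pak5* (listed under its older symbol *Pak7*) and *Pak6*, and the 2 inhibitor genes *Inka1* and *Inka2*. The family was picked because *Pak3* was higher and *Inka2* lower with estradiol (E2), so the differences between treatments are given below as a description of its members and not as a test of them. All mice were Kiss1Cre+/Rpl22HA+/+ females, in which Cre expressed from *Kiss1* tags ribosomes with hemagglutinin (HA), so that RNA on tagged ribosomes can be pulled down. Ovariectomy (OVX) was at an age of 8 weeks in all of them, and they received E2 for 4 days to drive Cre and then went 7 days without it. The E2 group was then given E2 for 5 days and the OVX group was given none, and there were 3 libraries per group, each from MeA punches pooled from 4 mice. The study sequenced no input or Cre-negative samples, so enrichment in *Kiss1* cells over the whole MeA could not be computed.

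PAKs are serine/threonine kinases that act downstream of the small GTPases Rac and Cdc42. Group I (*Pak1*, *Pak2* and *Pak3*) is held inactive by an autoinhibitory segment until a GTPase binds, whereas group II (*Pak4*, *Pak5* and *Pak6*) is regulated differently and binds mainly Cdc42. In neurons, PAKs signal to the actin cytoskeleton of dendritic spines, in part through LIM kinase and cofilin, and human *PAK3* is a gene of X-linked intellectual disability. The Inka proteins carry a short motif, the Inka box, through which they bind and inhibit PAK4.

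*Pak3* and *Inka2* are shown here by the sequence before their annotated starts, because E2 acts in part through receptors that bind DNA at estrogen response elements. The windows are the 250 bases before a RefSeq start on GRCm38.p6, 5′ to 3′ on the strand of the gene. Capitals mark the half-site GGTCA, searched on both strands.
*Pak3*, chrX:143518341-143518590, plus strand: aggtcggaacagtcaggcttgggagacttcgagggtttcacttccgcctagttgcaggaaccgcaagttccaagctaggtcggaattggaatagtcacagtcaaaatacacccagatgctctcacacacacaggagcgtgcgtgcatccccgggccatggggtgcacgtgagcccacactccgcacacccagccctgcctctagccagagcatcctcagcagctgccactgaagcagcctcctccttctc
*Inka2*, first start, chr3:105704349-105704598, plus strand: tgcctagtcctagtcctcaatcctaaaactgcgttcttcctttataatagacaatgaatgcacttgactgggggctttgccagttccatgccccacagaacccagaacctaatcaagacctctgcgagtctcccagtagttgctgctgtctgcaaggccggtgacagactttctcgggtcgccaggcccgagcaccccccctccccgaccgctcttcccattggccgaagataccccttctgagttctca
*Inka2*, second start, chr3:105705208-105705457, plus strand: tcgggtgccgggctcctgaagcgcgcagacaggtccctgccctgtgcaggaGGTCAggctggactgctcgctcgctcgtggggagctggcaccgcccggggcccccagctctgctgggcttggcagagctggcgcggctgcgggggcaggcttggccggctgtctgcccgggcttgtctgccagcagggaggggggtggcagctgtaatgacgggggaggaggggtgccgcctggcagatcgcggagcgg
The full element GGTCANNNTGACC was in 0 of the 12 windows of the 7 members with an entry (all but *Pak2*), and in 0.0639% of the 32851 windows of that length. The half-site, which lies inside the full element, was in 4 of the 12 windows, those of *Inka2*, *Pak4* and *Pak6* (2 windows), and in 35.2% of all windows. In the second *Inka2* window it began 199 bases before the start. The *Pak3* window printed above, and its other 2, held neither motif, which says nothing of sites elsewhere in the gene.

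Scaled library sizes, computed from the lowest value in each library, ran from 28.1M to 34.2M reads in OVX and from 30.3M to 34.0M in E2 libraries. The labelled cell type was checked by markers. *Kiss1*, listed as 2 overlapping gene models, rose with E2 in the gene model with a mean log2 CPM of 2.70 (difference 1.91, SE 0.26, adjusted p = 0.00475 with limma). In the other model, with a mean of 0.40, the difference was 5.05 (SE 1.09, adjusted p = 0.0942 with limma), with OVX replicate 1 at -5.82. *Cck*, present in MeA *Kiss1* cells, had a mean log2 CPM of 9.09. All 6 markers each of astrocytes, oligodendrocytes, microglia and vessels were also listed, among them *Mbp* of myelin with a mean log2 CPM of 9.68, so RNA of genes that mark other cells was present. In bulk libraries such as these, fewer cells of a type and less RNA per cell cannot be told apart.

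Levels were compared between genes as log2 CPM per kilobase of the longest transcript. On this scale *Pak1* was the most abundant member, with a mean of 7.20 (rank 312 of 13881 genes with a transcript length), followed by *Pak6* at 5.04 (rank 2060) and *Pak3* at 4.25 (rank 3579). Next came *Inka2* with 3.70, *Pak2* had 3.01 and *Pak5* 2.95, close to the median of all genes of 2.97. The lowest were *Pak4* with 1.58 and *Inka1* with 0.85. Thus *Pak1*, *Pak6* and *Pak3* stood above the other PAK genes, while *Pak4*, the kinase that Inka proteins inhibit, was the lowest of them. With this length, the order held in all 6 libraries for each neighbouring pair but *Pak2* and *Pak5*, where it held in 5. Only for this pair did the ranges over libraries overlap. Without length scaling the mean over all 6 libraries was higher for *Pak3* than for *Pak6* (log2 CPM 7.36 against 7.18). That order held in the E2 group (means 7.60 against 7.14), while in the OVX group *Pak6* was the higher (7.23 against 7.12). The longest transcript has 8657 nt for *Pak3* and 4411 nt for *Pak6*.

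**Figure D1:**
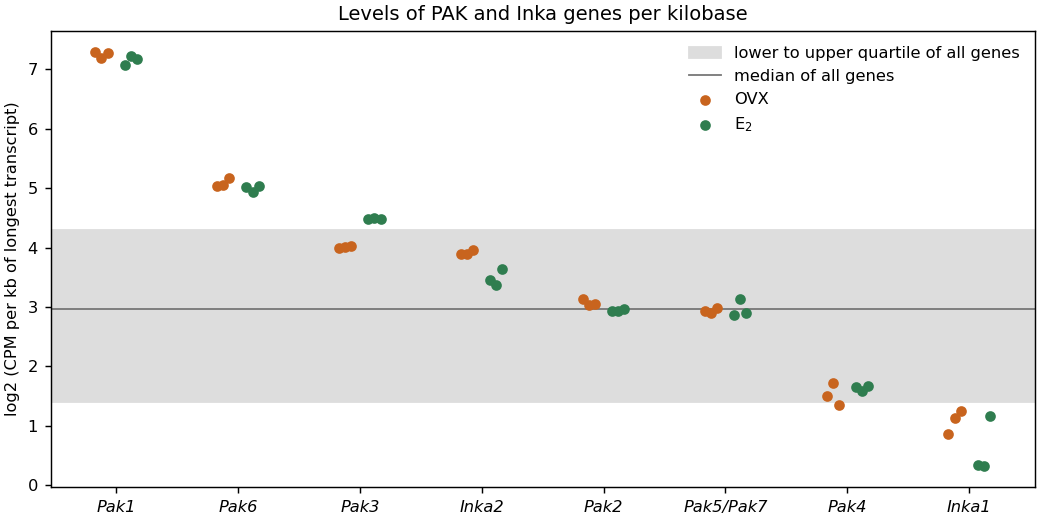
Level of each member in each library, as log2 CPM per kilobase of the longest transcript (y axis), with OVX libraries in orange and E2 libraries in green; the grey band runs from the lower to the upper quartile of all genes and the line is their median of 2.97. *Pak1* lies above every other member, and *Inka1* is lowest.

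*Pak3* (ENSMUSG00000031284, chromosome X from 143518591 to 143797796, plus strand, GRCm38) measured 7.11, 7.12 and 7.13 log2 CPM in OVX replicates 1, 2 and 3 and 7.60, 7.62 and 7.59 log2 CPM in E2 replicates 1, 2 and 3. Every E2 library was above every OVX library, with a gap of 0.46 between the groups and a range of no more than 0.03 within either. The group means were 7.12 ± 0.01 (SD, n = 3) and 7.60 ± 0.01 (SD, n = 3), which correspond to 139 and 194 CPM. The difference, E2 minus OVX, was 0.48 on the log2 scale or 1.39-fold (SE 0.05, 95% interval 0.37 to 0.59 on the log2 scale). By size, it ranked 646 of the 13886 differences. Across the 16 alternative analyses the difference lay between 0.47 and 0.49.

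*Inka2* (ENSMUSG00000048458, chromosome 3 from 105704599 to 105720842, plus strand) measured 6.12, 6.13 and 6.19 log2 CPM in OVX libraries, against 5.69, 5.61 and 5.88 log2 CPM in E2 libraries. Every E2 library was below every OVX library, by 0.24 or more, and E2 replicate 3 stood nearest to the OVX group. The difference was -0.42 (SE 0.08, 95% interval -0.59 to -0.25), from 6.14 ± 0.04 (SD, n = 3) to 5.73 ± 0.14 (SD, n = 3). The call of *Inka2* was lost when most of the libraries were left out singly, though its difference stayed between -0.36 and -0.49. Each such fit also has fewer libraries. It was not past the threshold used for all genes without OVX replicate 1 (difference -0.43), OVX replicate 2 (-0.43), OVX replicate 3 (-0.40), E2 replicate 1 (-0.40) or E2 replicate 2 (-0.36), and it was past it without E2 replicate 3 (-0.49). With all 6 libraries, *Inka2* was also not past the threshold without the mean-variance trend, with quantile normalization or with the replicate number as a block.

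*Inka1* (ENSMUSG00000042106, chromosome 9 from 107984223 to 107985879, minus strand), the paralog of *Inka2*, was near the lower limit of the table. It measured 0.89, 1.16 and 1.29 log2 CPM in OVX libraries, against 0.38, 0.36 and 1.20 log2 CPM in E2 libraries, which stand for 39 to 76 reads per library. E2 replicates 1 and 2 were below all OVX libraries and E2 replicate 3 was among them, so the groups overlapped. The difference of -0.47 had an SE of 0.37 and a 95% interval from -1.25 to 0.32, which held both 0 and the difference of *Inka2*.

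**Figure D2:**
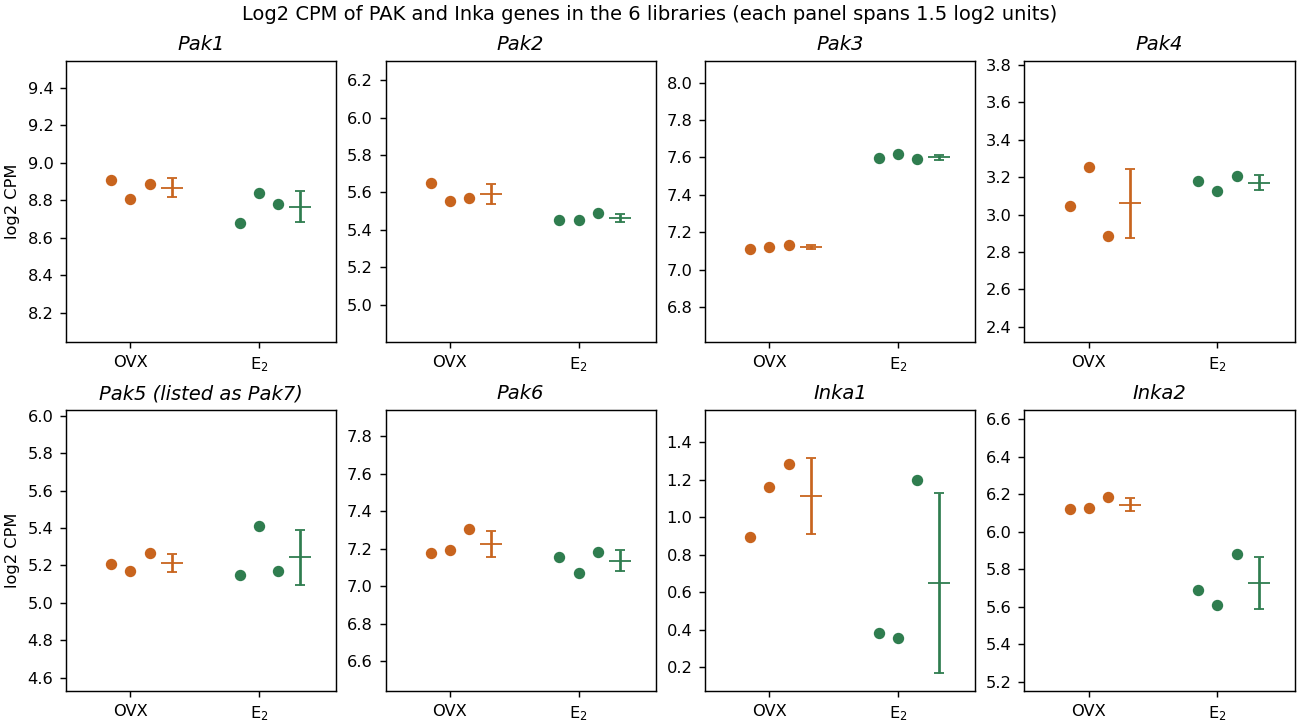
Log2 CPM (y axis) of the 8 members in the 3 OVX (orange) and 3 E2 (green) libraries, replicates 1 to 3 from left to right, with the group mean and SD beside the points; each panel spans 1.5 log2 units. The groups stand apart for *Pak3*, *Inka2* and, by 0.07, *Pak2*.

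The other group I genes, *Pak1* and *Pak2*, had small negative differences. *Pak1* (ENSMUSG00000030774, chromosome 7 from 97788541 to 97912381, plus strand) measured 8.91, 8.81 and 8.89 log2 CPM in OVX libraries, against 8.68, 8.84 and 8.78 log2 CPM in E2 libraries, and the groups overlapped. Its difference was -0.10 (SE 0.06, 95% interval -0.23 to 0.02). *Pak2* (ENSMUSG00000022781, chromosome 16 from 32016290 to 32079342, minus strand), the ubiquitous member of group I, had 5.65, 5.56 and 5.57 in OVX libraries, against 5.45, 5.45 and 5.49 in E2 libraries. Its groups did not overlap, but the gap was only 0.07, and its difference of -0.13 (SE 0.07) had a 95% interval from -0.29 to 0.03.

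In group II, every 95% interval held 0. *Pak4* (ENSMUSG00000030602, chromosome 7 from 28558819 to 28598185, minus strand) measured 3.05, 3.25 and 2.89 log2 CPM in OVX libraries, against 3.18, 3.13 and 3.20 log2 CPM in E2 libraries, all E2 values lying within the OVX range. Its difference was 0.11 (SE 0.16), and 39 of its exonic bases lie in exons of *Samd4b* on the same strand. *Pak5* (ENSMUSG00000039913, chromosome 2 from 136081104 to 136387967, minus strand) had 5.21, 5.17 and 5.27 in OVX libraries, against 5.15, 5.41 and 5.17 in E2 libraries, where E2 replicate 2 alone was above all others. Its difference was 0.03 (SE 0.09), and -0.05 without E2 replicate 2. *Pak6* (ENSMUSG00000074923, chromosome 2 from 118663303 to 118698020, plus strand) had 7.18, 7.19 and 7.31 in OVX libraries, against 7.15, 7.07 and 7.18 in E2 libraries, with a difference of -0.09 (SE 0.06). No member but *Pak4* shares exonic bases with another annotated gene.

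The make-up of the PAK transcripts was also computed within each library, as the share of each gene in the summed CPM per kilobase of the 6 PAK genes. *Pak1* held most of the sum, 68.8% ± 0.77 (SD, n = 3) in OVX libraries, against 66.1% ± 1.26 (SD, n = 3) in E2 libraries. *Pak3* held 7.11%, 7.49% and 7.19% in OVX libraries, against 10.8%, 10.2% and 10.2% in E2 libraries. The share of *Pak3* was thus higher in every E2 library, but it stayed below that of *Pak6*, which was between 13.7% and 15.9% in all 6. *Pak2*, *Pak5* and *Pak4* each held less than 4% in every library. The sum of the 6 PAK genes was 222 ± 6.2 CPM per kilobase (SD, n = 3) in OVX libraries, against 215 ± 7.9 (SD, n = 3) in E2 libraries, with overlapping groups. Group I made up 79.9% ± 0.71 (SD, n = 3) of it in OVX and 80.1% ± 0.82 (SD, n = 3) with E2, a difference within the spread between libraries.

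**Figure D3:**
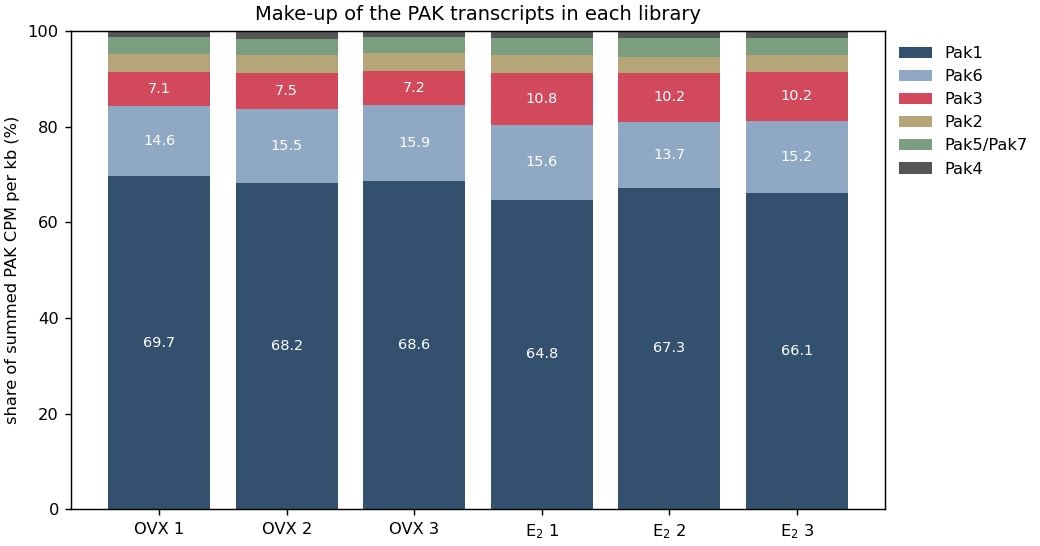
Share of each PAK gene in the summed CPM per kilobase of the 6 PAK genes (y axis, percent), for each of the 6 libraries (x axis), with the shares of *Pak1*, *Pak6* and *Pak3* printed in the bars. The *Pak3* share is 7.11% to 7.49% in OVX and 10.2% to 10.8% in E2 libraries.

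Because *Pak3* and *Inka2* differed in opposite directions, the distance between them differed between the groups. Per kilobase, *Pak3* exceeded *Inka2* by 0.11, 0.11 and 0.07 log2 units in OVX libraries, against 1.03, 1.13 and 0.83 in E2 libraries. These transcripts were therefore at nearly the same level per kilobase in OVX libraries. With the length of the longest transcript, *Pak3* was the higher of the pair in all 6. The exon union (9552 nt for *Pak3*, 4781 nt for *Inka2*) lowers *Pak3* more than *Inka2*. The order of the pair in OVX libraries therefore depends on the length used. *Inka2* exceeded *Pak4*, the kinase bound by Inka proteins, by 2.39 ± 0.21 log2 units per kilobase (SD, n = 3) in OVX libraries, against 1.86 ± 0.10 (SD, n = 3) in E2 libraries. These distances restate the differences that chose the family and carry no test.

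With limma on the log2 CPM and an adjusted p under 0.05 over all genes as the threshold, 40 of the 13886 genes were called, or 0.288%, of which 0.23% were higher and 0.0576% lower with E2. Of the 8 members, 1 (*Pak3*) was called higher and 1 (*Inka2*) lower, which is how the family was picked. Groups did not overlap for 3 of the 8 members, against 13.7% of all genes. One of these, *Pak3*, was higher with E2, as were 6.85% of all genes, and the others, *Inka2* and *Pak2*, were lower, as were 6.82% of all genes. Of the members, 3 had a positive and 5 a negative difference, beside a median difference of all genes of 0.0034.

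Marker lists of other cells were set beside these values. One list held 6 genes chosen as markers of excitatory neurons of forebrain areas beyond the MeA. Its summed CPM was 880 to 1137 in OVX and 668 to 871 in E2 libraries. Of these genes, 0 of the 6 were higher with E2, though no gene of the list was past the threshold. Most of the sum was *Slc17a7* (mean log2 CPM 9.47), with *Tbr1* next (6.15). The study names *Slc17a7*, as *Vglut1*, among transcripts expressed in its MeA *Kiss1* data, which are these same libraries. Which cells this RNA came from was not tested. E2 replicate 3, which had the highest sum of this list among the E2 libraries, also had the highest *Inka2* and *Inka1* values among them. Within the OVX libraries the order was the opposite. There the sum fell from replicate 1 to 3 (1137, 957 and 880), while *Inka2* (6.12, 6.13 and 6.19 log2 CPM) and *Inka1* (0.89, 1.16 and 1.29) rose. The erythroid sum was 121 to 228 CPM in OVX and 280 to 447 in E2 libraries, and *Hba-a1* and *Hba-a2* were past the threshold, while *Hbb-bs* was not listed. The sums of the neuron, astrocyte, oligodendrocyte lineage, microglia, vessel and striatal lists overlapped between the groups. The sum of the MeA *Kiss1* neuron list, whose genes the study names, was 606 to 710 CPM in OVX and 701 to 850 in E2 libraries. In it *Kiss1*, *Gal* and *Oxtr* were past the threshold as higher and *Esr1* as lower with E2. Most of the sum of this list was *Cck* (mean log2 CPM 9.09), with *Cartpt* next (6.44), and neither was past the threshold. The list holds genes that differ with E2, and cell number and RNA per cell cannot be told apart here. It is therefore no gauge of how many *Kiss1* cells were sampled. The part of these lists in the differences of *Pak3* and *Inka2* was not tested.

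**Figure D4:**
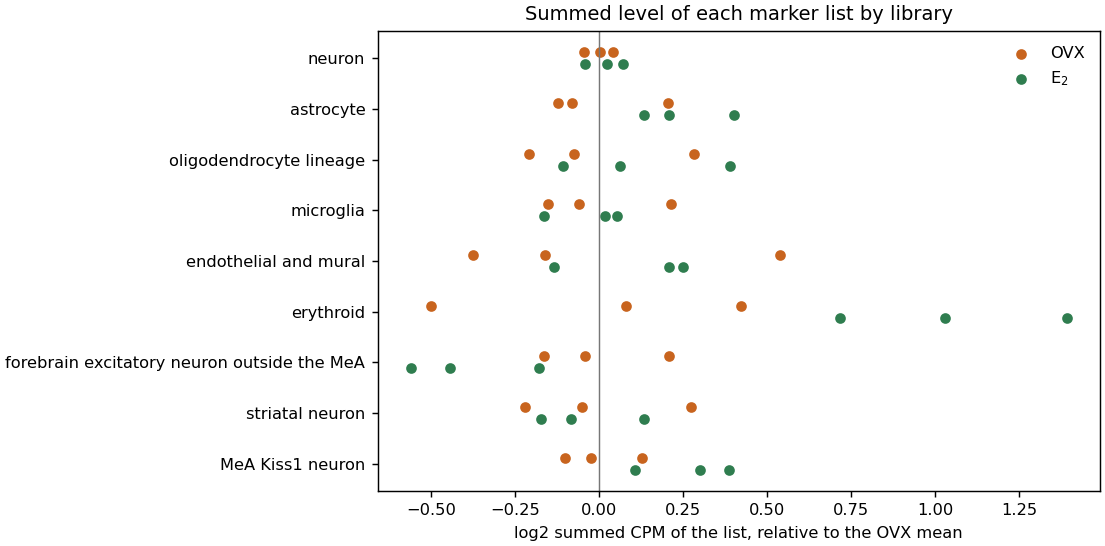
Summed CPM of each marker list in each library (x axis, log2 relative to the mean of the OVX libraries), with OVX libraries in orange and E2 libraries in green. The groups do not overlap for the erythroid list, which is higher in E2 libraries, or for the forebrain excitatory list, which is lower.

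Other genes of the PAK pathway were then examined, from lists of regulators and targets chosen for their role and not for how they moved. Of 132 such genes, 131 were listed (all but *Cdc42ep5*), and 0 were past the threshold in either direction with limma on log2 CPM or with voom weights on rebuilt counts. At an unadjusted p under 0.05 there were 14 genes, or 10.7%, against 8.56% of all genes. The groups did not overlap for 5 genes higher and 11 genes lower with E2, 12.2% of the list together, against 13.7% of all genes (6.85% higher and 6.82% lower), so the share in these lists was near that of all genes. The median difference was -0.03, and the range of differences was -0.28 to 0.57. Differences were positive for 48 of the 131 pathway genes, beside 7089 of all 13886 genes. Without E2 replicate 3, 1 gene (*Elmo1*) was past the threshold.

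The 8 GTPase genes whose products bind PAKs had a median log2 CPM of 4.78, against 4.76 for all genes, and *Cdc42* was the most abundant of them. *Cdc42* had a mean log2 CPM of 8.20 and a difference of 0.03 (SE 0.07, adjusted p = 0.943). The 8 GTPase genes had a median difference of 0.03, and the extremes were *Rhoj* (0.57, SE 0.33, adjusted p = 0.695), at a mean log2 CPM of only 1.18, and *Rhov* (-0.05, SE 0.11, adjusted p = 0.954). The groups overlapped for all 8, where 13.7% of all genes had groups that did not, and nothing about these genes is read from so small a count. Among the 7 adaptors, which bring PAKs to GTPases and membranes, the scaffold gene *Git1* measured 8.16, 8.20 and 8.13 log2 CPM in OVX libraries, against 7.89, 8.06 and 8.11 log2 CPM in E2 libraries. Each E2 library was below each OVX library, with a difference of -0.14 (SE 0.06, adjusted p = 0.549). *Git2* differed by 0.07 (SE 0.10, adjusted p = 0.910).

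Exchange factors, which load Rac and Cdc42 with GTP, were listed with 25 genes and a median difference of -0.07. With limma, 6 of them had an unadjusted p under 0.05, or 24%, against 8.56% of all genes, and these 6 went in both directions. By list this share ran from 0% to 24%, and it was 23.1% (3 of 13 genes) for upstream kinases, phosphatases and other inhibitors. *Rasgrf1* was the most abundant (mean log2 CPM 8.98, difference 0.01). *Vav2* had the largest positive difference (0.45, SE 0.16, adjusted p = 0.422) and *Tiam2* the largest negative one (-0.28, SE 0.12, adjusted p = 0.511). *Elmo1*, whose product works with the Dock exchange factors, was named after its values were seen. It had the smallest adjusted p of the pathway, 0.0942, with 7.13 ± 0.04 (SD, n = 3) in OVX libraries, against 7.47 ± 0.16 (SD, n = 3) in E2 libraries. The 16 genes of GTPase-activating proteins, which switch the GTPases off, had a median difference of -0.08, with 3 positive and 13 negative differences. *Chn1*, for a chimaerin that acts on Rac, was the most abundant at 9.61, *Chn2* had the largest positive difference (0.22, SE 0.11, adjusted p = 0.641) and *Arhgap15* the largest negative one (-0.27, SE 0.16, adjusted p = 0.702).

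The list of upstream kinases, phosphatases and further inhibitors of PAKs was the one nearest in role to *Inka2*. Of its 13 genes, 3 had positive differences, and the median was -0.04. *Nf2*, which encodes merlin, an inhibitor of group I PAKs and a PAK substrate, had the largest negative difference (-0.20, SE 0.07, adjusted p = 0.441). *Nisch*, for the inhibitor nischarin, was the most abundant at a mean log2 CPM of 9.42 (difference -0.05, SE 0.05, adjusted p = 0.855), and *Fxr1* had the largest positive difference (0.11, SE 0.07, adjusted p = 0.742). *Nf2* and *Nisch*, like *Fxr1*, were not past the threshold.

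Downstream, the 12 genes of the cofilin arm, which controls the severing of actin filaments, had a median difference of 0.003, and the groups overlapped for all 12, a count too small to read against the 13.7% of all genes without overlap. *Ywhaz* was its most abundant gene (10.51, difference -0.01), and the differences ran from -0.20 for *Tesk2* (SE 0.26, adjusted p = 0.904) to 0.14 for *Cfl2* (SE 0.08, adjusted p = 0.695). Of the 21 other substrates and targets, 10 had positive differences. *Ctnnb1*, which encodes beta-catenin, was the most abundant of these (9.57, difference 0.08, SE 0.05, adjusted p = 0.721), and the extremes were *Myl9* (0.30, SE 0.24, adjusted p = 0.802) and *Dynll1* (-0.14, SE 0.07, adjusted p = 0.604). Of the 29 listed genes of other Rac and Cdc42 effectors, 10 had positive differences. Here *Cyfip2* was the most abundant (9.52, difference -0.10), *Wasf3*, a WAVE protein gene of actin assembly, had the largest positive difference (0.23, SE 0.08, adjusted p = 0.391) and *Tnk2* the largest negative one (-0.14, SE 0.05, adjusted p = 0.433).

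**Figure D5:**
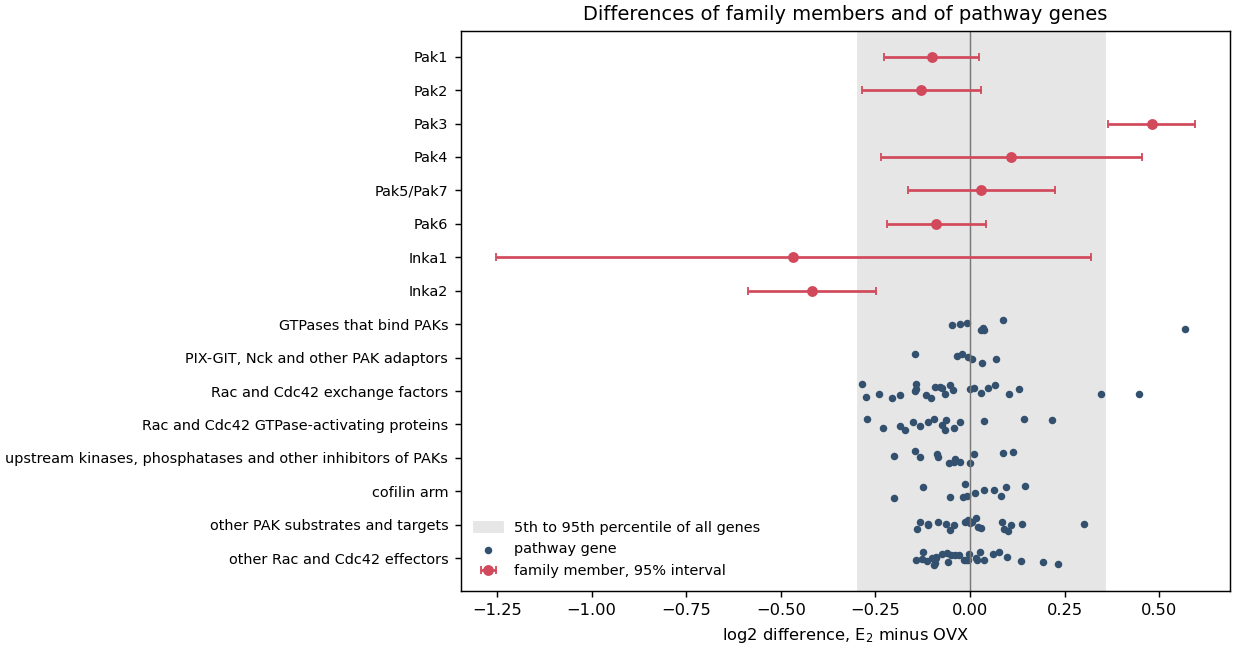
Log2 difference, E2 minus OVX (x axis), of each member with its 95% interval (red) and of the pathway genes by list (blue points), with the 5th to 95th percentile of all genes, -0.30 to 0.36, in grey. *Pak3* and the point estimates of *Inka1* and *Inka2* lie outside the grey band, and 129 of the 131 pathway genes lie inside it.

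The genes whose log2 CPM went most like that of *Pak3* over the 6 libraries were *Arhgap42* (Pearson r = 0.998), *Nrsn1* (0.991), *Tnr* (0.990), *Rasd1* (0.987) and *Pex7* (0.987), and the most opposite were *4930539E08Rik* (-0.993), *Agfg1* (-0.992), *Btbd9* (-0.988), *Kcnh1* (-0.982) and *Prrc2a* (-0.980). For *Inka2* the most alike were *Synpo* (0.994), *Kcnj9* (0.992), *Tmem159* (0.990), *Cdk14* (0.989) and *Hecw1* (0.987). Most opposite to it were *Dnajc2* (-0.993), *Col18a1* (-0.991), *Ece2* (-0.986), *Mrpl18* (-0.986) and *Sccpdh* (-0.985). These values describe a pattern set mainly by the treatment groups, over 6 libraries, and similar values were common, with an r above 0.95 for 56 genes with *Pak3* and for 56 with *Inka2*. Likeness took no account of size, as *Pex7* differed by 0.07 and *Rasd1* by 1.15 on the log2 scale.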

How the data were processed

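Immunoprecipitated RNA of MeA *Kiss1* cells was sequenced as polyA-enriched libraries, 3 per treatment. The authors trimmed reads with Trimmomatic 0.38, aligned them with STAR 2.6.0a, quantified them with RSEM on GRCm38, kept protein-coding genes, and applied TMM scaling and voom, and the deposited values are log2 CPM per library. The library kit was unstranded. The authors' table of fold changes and p-values was not used. The members and lists were chosen with earlier results of these data known.

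Here the log2 CPM of 13886 genes were fitted with limma 3.58.1 in R 4.3.3, with treatment as the only term, a mean-variance trend in the empirical Bayes step (prior degrees of freedom 9.55), two-sided p-values, and Benjamini-Hochberg adjustment over all genes. This took the place of the study's voom weights, which were an alternative on counts rebuilt from the log2 CPM with the lowest value of a library taken as a count of 0. Nothing says that a replicate number pairs libraries, and libraries with the same number did not deviate together from their group means (correlations across genes of -0.11, -0.16 and -0.10). Gene positions and lengths came from GENCODE mouse release M21 (GRCm38), another release than the authors'. The genes named were all members and, in each pathway list, those past the threshold (0 genes), the most abundant, and those with the largest positive and negative difference, with the 5 genes most and least like *Pak3* and *Inka2*. The fit was tested on simulated data of 13886 genes, where 62 of 100 genes changed by 0.5 and 94 of 100 changed by 1 on the log2 scale were called. Among the unchanged genes there were 8 false calls. The changed genes were drawn above a lower limit of mean log2 CPM, so these rates do not cover genes as low as *Inka1*. The SE of a log2 difference had a median of 0.11 over all genes. p-values measure the spread between pools of 4 mice.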

Additional observations from a re-analysis of the deposited data

How the results depend on the processing

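The difference of *Pak3* kept its sign in all 16 alternatives and was past the threshold in 15, all but the fit without the mean-variance trend, and that of *Inka2* kept its sign in all 16 and was past it in 8. Without the trend 0 genes were called, 0 of them members, with 1017 genes at an unadjusted p under 0.05. With quantile normalization 1 member was called (*Pak3*, not *Inka2*), and with the replicate block 1 member (*Pak3* again) and 35 genes (40 without it). The replicate block left the pathway count at 0. With each library left out in turn, the count of all genes ran from 20 to 66, of members from 1 to 2 and of pathway genes from 0 to 1. The count was 21 without OVX replicate 1, 26 without E2 replicate 1, 20 without E2 replicate 2 and 66 without E2 replicate 3, and the cause was not tested. The difference of *Pak5* changed sign without E2 replicate 2 (-0.05) and was not past the threshold in any of the 16. No scaling moved the median difference of all genes by over 0.1. By length, whether of the longest transcript or of the exon union, 6 of 8 members kept their place in the order of mean levels, and *Pak3* and *Pak6* changed places.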
